A study of Mus musculus with 20 samples.

Results

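The genes described here are 50 mouse genes of DNA replication and nucleotide synthesis, a list of S phase genes. Each was read through the probe set that carries its symbol alone and has the highest mean over all 20 arrays. All 50 were found among 19938 genes with such a probe set, and all 50 were among the 15272 genes kept for testing, which lay over the 40th percentile of an array on at least 2 arrays. Gmnn was over that level on 3 arrays, Cdc7 on 13, Orc1 on 14, Gins1 on 16 and Pola1 on 18, and the other members on all 20. Levels come from Affymetrix whole-transcript arrays of 4 fibroblast lines from mouse embryos: Ubf fl/fl and Ubf wt/wt lines immortalized with the SV40 T and t antigens (iMEFs), and Ubf fl/fl and Ubf wt/wt primary cells of E14.5 embryos (MEFs). All 4 lines were Er-cre+/+, so that controls carried the 4-hydroxytamoxifen (4-HT) dependent recombinase too, and all were given 50 nM 4-HT for 4 h. RNA was taken at 0, 24, 48, 72 and 96 h post 4-HT (pHT), and 1 array was hybridized for each condition. There were no replicates, each genotype and cell type was 1 line, and the number of arrays limits the precision. UBF, encoded by Ubtf, is the ribosomal RNA gene transcription factor that the floxed allele removes.

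DNA is copied once in each cell cycle. In G1 phase the origin recognition complex, CDC6 and CDT1 load the ring of MCM2 to MCM7 onto DNA, and in S phase the kinase CDC7 with DBF4, together with CDC45 and the GINS complex, turns the ring into the moving helicase. Polymerase alpha with primase starts each strand, polymerases delta and epsilon extend it on the PCNA clamp that the RFC complex loads, and ribonucleotide reductase and thymidylate synthase supply deoxynucleotides. Many of these genes are transcribed through E2F sites late in G1 phase, so their mRNAs are low in cells that leave the cycle, and the large T antigen of SV40 binds the retinoblastoma proteins that hold E2F in check.

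In primary MEFs the genes fell together between 24 and 48 h pHT in both genotypes and stayed low, whereas in iMEFs the change was smaller. At 96 h the members stood at a median of -0.56 from the 0 h array in iMEF Ubf fl/fl (45 of 50 lower) and -0.24 in iMEF Ubf wt/wt (34 lower), on the log2 scale, and at -1.56 in MEF Ubf fl/fl (50 lower) and -1.01 in MEF Ubf wt/wt (45 lower), where the medians of all genes lay between -0.104 and 0.075. Late arrays (48, 72 and 96 h) differed from early arrays (0 and 24 h) in MEFs by a median of -1.20 (0.436-fold), and 46 of 50 members passed the test as lower, as did 7.73% of all genes. In iMEFs the median difference was -0.18 and 4 members passed as lower (3.77% of all genes). At 48 to 96 h, 44 of 50 members were higher in iMEFs than in MEFs, by a median of 1.66 over all 50 (3.16-fold), while 37.0% of all genes were called higher and 31.7% lower. Gmnn, over the filter level on iMEF arrays alone, is among the 46 and the 44. None passed the test of Ubf loss in either cell type. The estimate was negative for 46 of 50 members in iMEFs and 47 of 50 in MEFs, and for 53.6% and 40.8% of all genes. In iMEFs the median of Ubf fl/fl minus Ubf wt/wt was 0.41 at 0 h and stayed positive late, between 0.07 and 0.14.

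**Figure D1:**
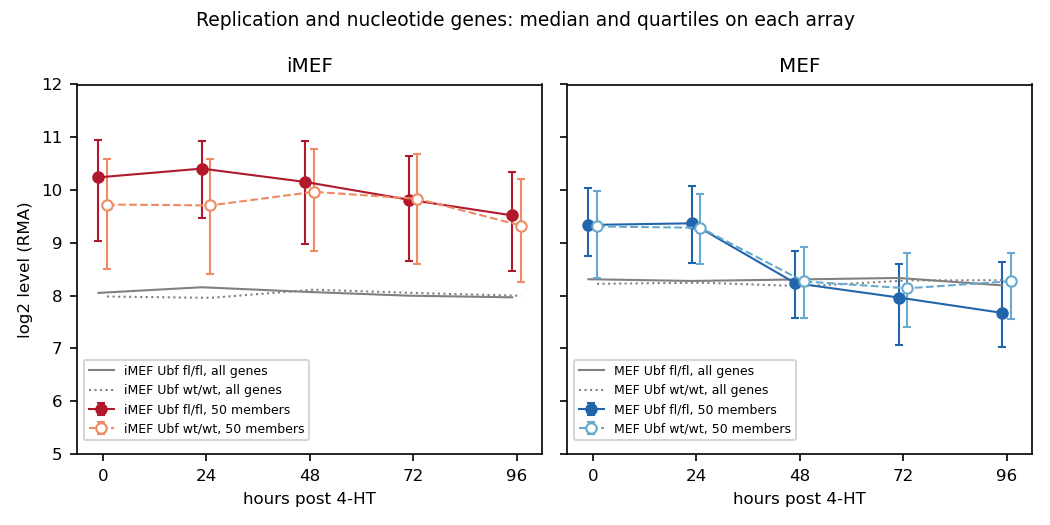
Median log2 level of the 50 members on each array (points, with bars for the quartiles over members) against hours pHT, for iMEFs (left) and MEFs (right), with Ubf fl/fl as filled points and Ubf wt/wt as open points; grey lines are the median of all 15272 genes. Both MEF lines drop by about the same step after 24 h, whereas the all-gene medians stay between 7.96 and 8.34.

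Promoters were read for 42 of the 50 genes, 51 sequences in all, from RefSeq (GRCm38.p6), each running 250 bases before to 50 bases after an annotated start. Those of MCM ring genes are shown because this group had the lowest median change in MEFs. The promoter of Mcm2 and a second start of Mcm7 held no E2F form, and that of Mcm2 is shown beside the others. No promoter was read for Mcm4. Capitals mark matches to any of 4 forms of the E2F site (TTTCCCGC, TTTGGCGC, TTTCGCGC and TTTGCCGC, on either strand, adjoining forms overlapping into 1 run). The sequences lie at chr8:75109259-75109558 on the plus strand (Mcm5), and on the minus strand at chr1:128359656-128359955 (Mcm6), chr1:20820263-20820562 (Mcm3), chr6:88898731-88899030 (Mcm2) and chr5:138171834-138172133 (the start of Mcm7 that holds a match).
Mcm5: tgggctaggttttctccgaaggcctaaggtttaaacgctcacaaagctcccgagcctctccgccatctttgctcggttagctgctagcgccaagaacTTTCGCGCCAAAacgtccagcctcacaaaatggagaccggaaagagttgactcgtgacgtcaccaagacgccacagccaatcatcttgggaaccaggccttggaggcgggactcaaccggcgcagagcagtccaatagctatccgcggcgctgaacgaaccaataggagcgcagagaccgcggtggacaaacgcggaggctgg
Mcm6: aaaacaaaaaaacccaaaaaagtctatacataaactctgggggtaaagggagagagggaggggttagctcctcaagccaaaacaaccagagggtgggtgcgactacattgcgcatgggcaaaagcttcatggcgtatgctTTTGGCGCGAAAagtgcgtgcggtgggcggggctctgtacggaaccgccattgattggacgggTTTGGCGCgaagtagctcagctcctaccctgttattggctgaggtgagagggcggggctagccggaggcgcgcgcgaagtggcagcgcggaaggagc
Mcm3: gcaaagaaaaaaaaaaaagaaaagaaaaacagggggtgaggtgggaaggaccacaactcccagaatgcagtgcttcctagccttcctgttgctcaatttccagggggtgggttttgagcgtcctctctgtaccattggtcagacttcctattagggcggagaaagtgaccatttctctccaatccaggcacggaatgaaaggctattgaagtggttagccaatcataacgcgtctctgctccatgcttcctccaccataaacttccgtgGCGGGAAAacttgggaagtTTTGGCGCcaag
Mcm7: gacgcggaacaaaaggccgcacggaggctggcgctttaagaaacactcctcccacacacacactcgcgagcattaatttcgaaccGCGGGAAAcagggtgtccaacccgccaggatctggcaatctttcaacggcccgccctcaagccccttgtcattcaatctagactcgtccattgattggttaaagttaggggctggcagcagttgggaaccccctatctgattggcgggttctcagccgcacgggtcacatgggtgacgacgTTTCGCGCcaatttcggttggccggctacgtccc
Mcm2: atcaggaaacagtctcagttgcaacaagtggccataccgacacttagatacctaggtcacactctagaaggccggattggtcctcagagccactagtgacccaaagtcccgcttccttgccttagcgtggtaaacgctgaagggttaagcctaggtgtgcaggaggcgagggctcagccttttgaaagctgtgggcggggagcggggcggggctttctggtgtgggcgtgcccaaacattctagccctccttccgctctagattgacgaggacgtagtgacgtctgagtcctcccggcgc
The match in Mcm5 began 153 bases upstream of the start, and the first in Mcm6 110 bases upstream. The first match of Mcm3 lay 19 bases downstream of the start, and that of Mcm7 165 bases upstream. In all, 15 of 51 member promoters (29.4%) held an E2F form, against 2.3% of 32851 promoters in the reference table and 2.9% of 21262 promoters of coding genes. The other members with a match were Orc1, Cdc6, Cdt1, Pola1, Pold1, Pole2, Gins3, Rfc3, Lig1, Uhrf1 and Dnmt1. The promoter of Tk1, whose fall was close to that of Mcm6, had none. The CHR element of mitotic genes (TTTGAA) was in 17.6% of member promoters, 17.9% of all and 16% of coding ones. The CCAAT box was in 54.9%, 37.4% and 38.2% of these, and the GC box (GGGCGG) in 72.5%, 35.7% and 46.2%. A match is a stretch of letters and was not tested for binding. The late change in MEFs had a median of -1.50 over the 15 genes with an E2F form (-2.48 to -0.48) and -1.18 over the 27 without (-2.14 to -0.24), and these ranges overlap over most of their width.

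The arrays were first checked against their labels. All 12 fibroblast markers (collagens, Pdgfra, Pdgfrb, Thy1 and others) were over the 40th percentile on every array of both MEF lines, and 10 of 12 on every iMEF array. Markers of macrophages were high in primary cells: the summed level of 16 genes was 10.46 to 11.23 (log2) in iMEF Ubf fl/fl and 10.79 to 11.34 in iMEF Ubf wt/wt, against 14.15 to 14.86 in MEF Ubf fl/fl and 13.31 to 14.11 in MEF Ubf wt/wt. Fewer cells of a type and less RNA per cell cannot be told apart in such samples. Arrays differed in how far genes lay from the mean of their line: 4.62% of genes were off by more than 1 on the 24 h array of iMEF Ubf fl/fl, 3.73% on the 96 h array of MEF Ubf fl/fl, 2.38% on the 96 h array of iMEF Ubf fl/fl, and 0.098% to 2.02% on the others. On the 24 h array of iMEF Ubf fl/fl, Rfc1 was 1.33 above the 0 h array of its line and Cdt1 0.44 below it. Ubtf itself read 10.43, 10.62, 10.42, 10.24 and 10.01 in iMEF Ubf fl/fl and 10.41, 10.45, 10.33, 10.17 and 9.49 in iMEF Ubf wt/wt at 0, 24, 48, 72 and 96 h. In MEFs it read 10.65, 10.55, 10.58, 10.53 and 10.65 (Ubf fl/fl) and 10.75, 10.60, 10.46, 10.22 and 10.22 (Ubf wt/wt). Whether its probes lie in the deleted exons was not tested, so these levels do not check the deletion.

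The change over time asks what happened over the time course whatever the genotype. All 4 lines carried Er-cre and were given 4-HT. Time in culture therefore cannot be told apart from time after 4-HT or from the activity of the recombinase. It was tested with limma in 1 model with a term for each line and for time within cell type, with Benjamini-Hochberg adjustment over 15272 genes and a threshold of 0.05. The Ubf fl/fl and Ubf wt/wt arrays of a cell type at the same time stand in for replicates, so the p-values are set by how far these lines moved apart over time, and any difference between genotypes in the time course counts as error. In MEFs 46 of 50 members were lower late (7.73% of all genes were called lower, 5.68% higher) and none was higher. Orc6, Rfc1, Rpa3 and Slbp did not pass. For 45 of 50 members all 6 late MEF arrays lay below all 4 early ones, as they did for 8.68% of all genes, and Orc6, Gins3, Rfc1, Rpa3 and Slbp were the exceptions. Fitted on the wild-type lines alone, 37 members passed as lower, with a median of -1.03. In that fit the early and late times of each line stand in for replicates. The share of all genes called in it is not given here, so the count is not read as a result about the members.

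Most of the fall lay between 24 and 48 h. Relative to 24 h, the 48 h array was lower for 50 of 50 members in MEF Ubf fl/fl (median -1.22) and for 50 of 50 in MEF Ubf wt/wt (median -1.06). It was lower by more than 1 for 32 and 27 members, against 1.43% and 1.29% of all genes. Between 48 and 72 h 45 members were lower again in MEF Ubf fl/fl (median -0.345, with Mcm5, Mcm6 and Tk1 lower by more than 1) and 36 in MEF Ubf wt/wt (median -0.13, 0 lower by more than 1). The 24 to 48 h interval gave medians of -0.18 in iMEF Ubf fl/fl and 0.29 in iMEF Ubf wt/wt. The 24 h array differed from the 0 h array by medians of 0.05 in MEF Ubf fl/fl and 0.08 in MEF Ubf wt/wt. No member passed the test of 24 h against 0 h in iMEFs or in MEFs (0.00% of all genes called in each direction, limma). An unadjusted p under 0.05 was found for 1 and 0 members (479 and 230 of all genes). That member was Tk1 in iMEFs (-0.45 ± 0.21, SE, adjusted p = 0.991), and in MEFs Prim2 had the smallest p (0.29 ± 0.20, adjusted p = 0.9999). Tk1 read 10.96, 10.75, 10.75, 10.67 and 10.10 in iMEF Ubf fl/fl and 11.05, 10.35, 10.63, 10.70 and 10.25 in iMEF Ubf wt/wt. By this probe set the 24 h array was low in Ubf wt/wt and equal to the 48 h array in Ubf fl/fl. A second probe set of Tk1 read 10.86 at 0 h and 10.83 at 24 h in iMEF Ubf wt/wt. In MEFs Tk1 read 9.54, 9.77, 7.98, 6.87 and 7.17 (Ubf fl/fl) and 9.88, 9.71, 8.0, 7.74 and 7.77 (Ubf wt/wt), with all late arrays below the early ones. Prim2 read 9.59, 9.85, 9.24, 9.12 and 8.84 in MEF Ubf fl/fl and 9.31, 9.63, 8.92, 8.90 and 9.10 in MEF Ubf wt/wt, and 10.26, 10.56, 10.23, 9.81 and 9.64 in iMEF Ubf fl/fl and 9.79, 9.65, 10.13, 9.85 and 9.27 in iMEF Ubf wt/wt. In both MEF lines its 24 h array was the highest of the line.

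**Figure D2:**
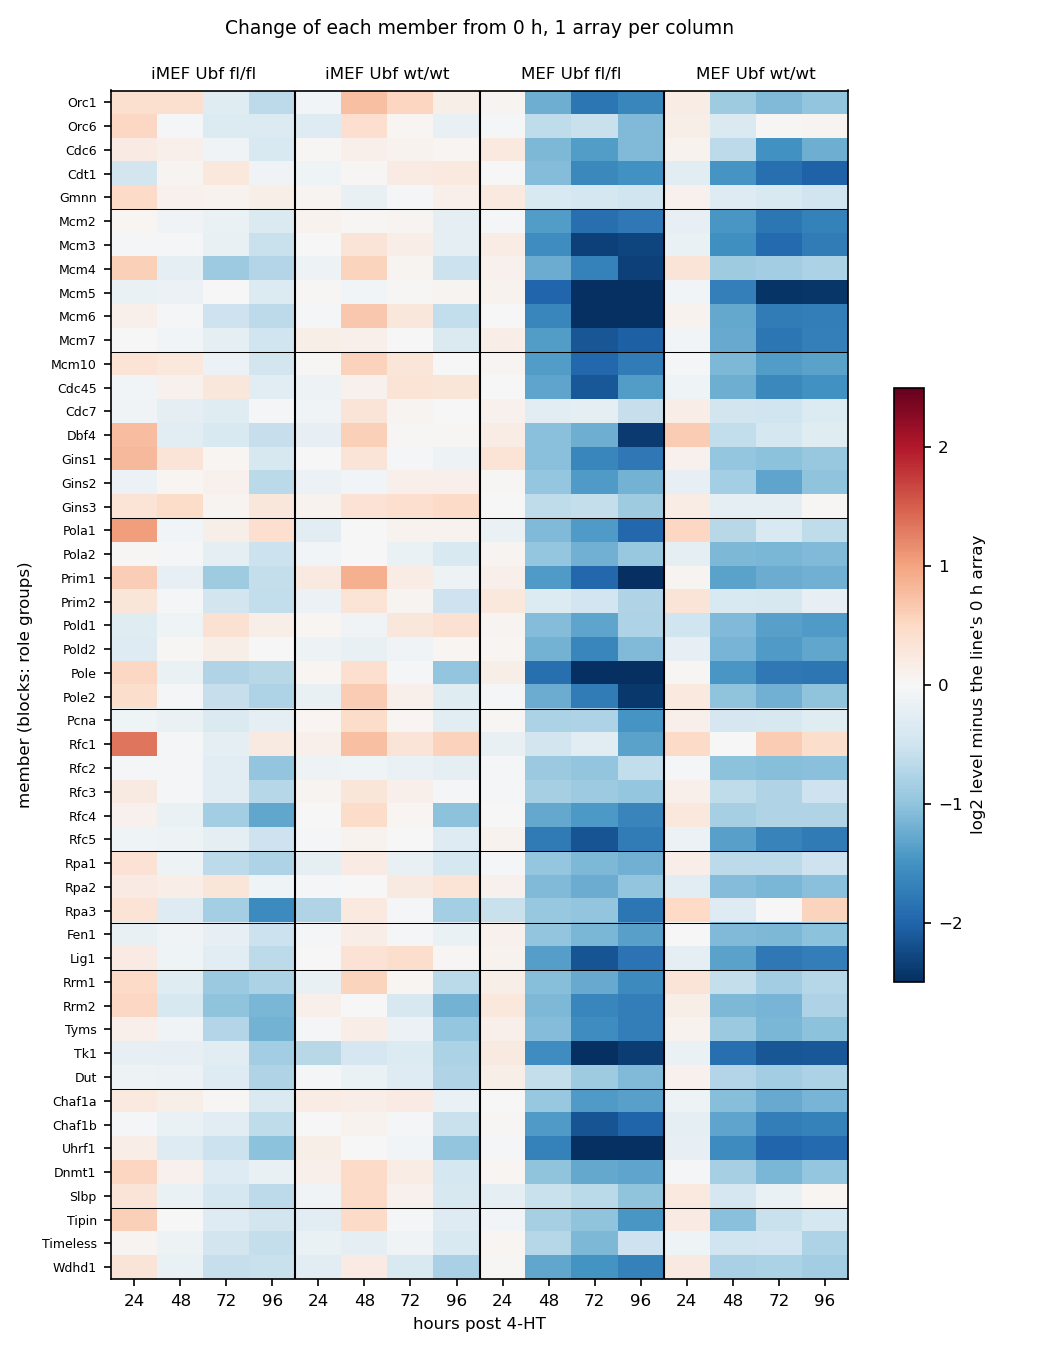
Log2 level of each of the 50 members (rows, in blocks by role) minus the 0 h array of the same line, for 24, 48, 72 and 96 h pHT (columns, 1 array each); blue is lower and red is higher, and the colours end at 2.5 in each direction. The blue block begins at 48 h in both MEF lines, and Rfc1, Rpa3 and Orc6 stand out as pale rows in MEF Ubf wt/wt.

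The MCM ring, the replicative helicase, had the lowest median change of the 10 role groups: all 6 genes were lower late in MEFs, with a median of -1.83 (0.282-fold). Mcm5 had the largest change of all members. It read 10.72, 10.81, 8.73, 7.57 and 7.63 in MEF Ubf fl/fl and 10.78, 10.71, 9.07, 8.32 and 8.35 in MEF Ubf wt/wt at 0, 24, 48, 72 and 96 h. Every late MEF array lay below every early one, and at each late time Ubf fl/fl was below Ubf wt/wt. The fall was -2.48 ± 0.13 (SE, 0.180-fold, adjusted p = 3.7e-07). In iMEFs Mcm5 read 12.06, 11.89, 11.91, 12.05 and 11.72 (Ubf fl/fl) and 11.84, 11.86, 11.78, 11.87 and 11.90 (Ubf wt/wt), with no separation of late and early arrays (-0.04 ± 0.13, adjusted p = 0.91). Mcm7, the group's member with the highest mean, read 10.78, 10.95, 9.38, 8.64 and 8.74 in MEF Ubf fl/fl and 11, 10.93, 9.74, 9.19 and 9.30 in MEF Ubf wt/wt. In iMEFs it read 11.93, 11.94, 11.87, 11.68 and 11.44 (Ubf fl/fl) and 11.54, 11.69, 11.67, 11.54 and 11.18 (Ubf wt/wt). Mcm7 thus stepped down at 48 h in MEFs alone, by -1.75 ± 0.10 late against early (adjusted p = 3.7e-07), and Mcm6 (-2.10), Mcm3 (-1.90), Mcm2 (-1.61) and Mcm4 (-1.42) passed too.

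Of the origin licensing genes, 4 of 5 were lower late in MEFs (median -1.25), with Gmnn among the 4. Cdt1, the loader of the MCM ring, fell by 1.54 (SE 0.10, adjusted p = 8.7e-07). It read 9.99, 10.00, 8.90, 8.37 and 8.48 in MEF Ubf fl/fl and 10.22, 9.94, 8.74, 8.33 and 8.19 in MEF Ubf wt/wt. In iMEFs it was 11.73, 11.28, 11.80, 11.99 and 11.64 (Ubf fl/fl) and 11.63, 11.53, 11.66, 11.84 and 11.87 (Ubf wt/wt), so that its late iMEF arrays were not below the early ones. Orc1, a subunit of the origin recognition complex, fell by 1.34 and Cdc6, which joins it, by 1.25. The late MEF arrays of Orc1 read 5.55 to 6.14, all under the 40th percentile of those arrays. Gmnn, which encodes the CDT1 inhibitor geminin, fell by 0.51, but all its MEF arrays (5.19 to 5.94) lay under the 40th percentile of those arrays. The 3 arrays that brought Gmnn into the tests were all of iMEFs, so its comparisons with or within MEFs carry no weight. Orc6 changed by -0.46 ± 0.19 (adjusted p = 0.15).

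All 7 genes of helicase activation and origin firing were lower late in MEFs (median -1.21). Cdc45, a subunit of the active helicase, fell by 1.50 and Mcm10, which acts as it is switched on, by 1.49. Gins2, of the GINS complex, read 9.58, 9.60, 8.61, 8.16 and 8.40 in MEF Ubf fl/fl and 9.82, 9.62, 8.97, 8.50 and 8.81 in MEF Ubf wt/wt (-1.08 ± 0.12, adjusted p = 8.4e-05). In iMEFs Gins2 read 10.85, 10.71, 10.89, 10.95 and 10.17 (Ubf fl/fl) and 10.91, 10.76, 10.84, 11.04 and 11.03 (Ubf wt/wt), with 1 low array at 96 h. Gins1 fell by 1.35 and Gins3 by 0.48. The late MEF arrays of Gins1 read 5.71 to 6.45, most of them under the 40th percentile of those arrays. Of the kinase, Dbf4, the activator, fell by 1.21 (SE 0.29) and Cdc7, the catalytic subunit, by 0.47 (SE 0.11). The late MEF arrays of Cdc7 read 5.68 to 6.01, all under the 40th percentile of those arrays, and the difference between both subunits was not tested.

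All 8 genes of the polymerases and primase were lower late in MEFs (median -1.19). Pole, the catalytic subunit of polymerase epsilon, fell by 2.13 (SE 0.21) and its partner Pole2 by 1.49. Prim1, the catalytic primase subunit, fell by 1.67 and Prim2, its large subunit, by 0.58. For Pold2, a subunit of polymerase delta, the arrays read 10.96, 11, 9.77, 9.33 and 9.86 in MEF Ubf fl/fl and 11.44, 11.24, 10.28, 10.02 and 10.15 in MEF Ubf wt/wt (-1.26 ± 0.10, adjusted p = 3.2e-06). Its iMEF arrays read 12.33, 12.01, 12.36, 12.48 and 12.32 (Ubf fl/fl) and 12.34, 12.22, 12.16, 12.25 and 12.39 (Ubf wt/wt), all above every MEF array. Pola1 and Pola2, of polymerase alpha, fell by 1.12 and 1.04, and Pold1, which extends the lagging strand, by 1.07.

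Among the clamp and its loader, 5 of 6 genes were lower late in MEFs (median -0.86), and the subunits of RFC did not move alike. Rfc5 fell by 1.72, Rfc4 by 1.18, Rfc2 by 0.93 and Rfc3 by 0.79. Rfc1, the large subunit, changed by -0.24 ± 0.27 (adjusted p = 0.71). It read 9.08, 8.90, 8.63, 8.80 and 7.75 in MEF Ubf fl/fl and 8.21, 8.69, 8.22, 8.85 and 8.65 in MEF Ubf wt/wt. Its iMEF arrays read 7.60, 8.93, 7.55, 7.38 and 7.82 (Ubf fl/fl) and 6.97, 7.10, 7.72, 7.30 and 7.55 (Ubf wt/wt). The early and late MEF arrays of Rfc1 overlapped, and the iMEF arrays lay between 6.97 and 7.82 apart from that of Ubf fl/fl at 24 h. Pcna read 11.43, 11.46, 10.64, 10.65 and 9.96 in MEF Ubf fl/fl and 10.99, 11.12, 10.57, 10.59 and 10.68 in MEF Ubf wt/wt, a fall of 0.74 (SE 0.15, adjusted p = 0.0065). In iMEFs it read 11.62, 11.51, 11.45, 11.25 and 11.37 (Ubf fl/fl) and 11.11, 11.15, 11.56, 11.15 and 10.85 (Ubf wt/wt), and these ranges overlap.

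Of the subunits of RPA, which coats single-stranded DNA, Rpa2 fell by 1.06 and Rpa1 by 0.88 late in MEFs. Rpa1 read 10.09, 10.07, 9.13, 8.97 and 8.89 in MEF Ubf fl/fl and 9.82, 9.98, 9.16, 9.17 and 9.31 in MEF Ubf wt/wt. In iMEFs it read 10.53, 10.89, 10.40, 9.87 and 9.76 (Ubf fl/fl) and 10.07, 9.84, 10.27, 9.88 and 9.64 (Ubf wt/wt). The late arrays of Rpa1 lay below the early ones in both MEF lines and in iMEF Ubf fl/fl, but not in iMEF Ubf wt/wt. Rpa3, the smallest subunit, changed by -0.56 ± 0.31 (adjusted p = 0.30). Both genes of Okazaki fragment maturation were lower late in MEFs. DNA ligase Lig1 read 9.39, 9.47, 8.02, 7.23 and 7.55 in MEF Ubf fl/fl and 9.54, 9.29, 8.20, 7.76 and 7.82 in MEF Ubf wt/wt. Its iMEF arrays read 10.57, 10.78, 10.47, 10.28 and 9.92 (Ubf fl/fl) and 10.01, 10.02, 10.38, 10.44 and 10.03 (Ubf wt/wt). Lig1 fell by 1.66 (SE 0.14) in MEFs, and the flap nuclease Fen1 by 1.15 (SE 0.09).

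All 5 genes of nucleotide synthesis were lower late in MEFs (median -1.30). Tk1, the thymidine kinase of proliferating cells, fell by 2.14 (SE 0.13), Rrm2 and Rrm1, which form ribonucleotide reductase, by 1.36 and 1.1, thymidylate synthase Tyms by 1.30 and the dUTPase Dut by 0.89. Rrm1 read 11.65, 11.80, 10.58, 10.39 and 10.05 in MEF Ubf fl/fl and 11.27, 11.60, 10.68, 10.41 and 10.55 in MEF Ubf wt/wt. In iMEFs Rrm1 read 11.42, 11.89, 11.12, 10.49 and 10.62 (Ubf fl/fl) and 10.79, 10.61, 11.35, 10.83 and 10.12 (Ubf wt/wt), which overlaps the MEF range. Rrm2, Tyms and Dut were called in iMEFs too, but these calls were lost without either 0 h array of the iMEFs or in the wild-type lines alone, and Rrm1 and Tk1 were not called there.

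Of the chromatin assembly and methylation genes, 4 of 5 were lower late in MEFs (median -1.18). Uhrf1, which brings the maintenance methyltransferase to new DNA, fell by 2.01, and the chromatin assembly factor subunits Chaf1b and Chaf1a by 1.67 and 1.18. Dnmt1, the methyltransferase, read 10.37, 10.41, 9.36, 9.09 and 9.06 in MEF Ubf fl/fl and 10.37, 10.33, 9.54, 9.23 and 9.41 in MEF Ubf wt/wt (-1.09 ± 0.13, adjusted p = 0.00013). Its iMEF arrays read 10.93, 11.47, 11.03, 10.60 and 10.75 (Ubf fl/fl) and 10.34, 10.47, 10.81, 10.52 and 9.91 (Ubf wt/wt), with Ubf fl/fl at 24 h the highest. Slbp, which binds histone mRNA, changed by -0.46 ± 0.17 (adjusted p = 0.088). All 3 fork protection genes passed: Wdhd1 fell by 1.22, Tipin by 0.92 and its partner Timeless by 0.67. Tipin read 8.51, 8.44, 7.68, 7.51 and 7.05 in MEF Ubf fl/fl and 8.11, 8.31, 7.07, 7.56 and 7.68 in MEF Ubf wt/wt. In iMEFs Tipin read 8.87, 9.46, 8.88, 8.55 and 8.42 (Ubf fl/fl) and 8.23, 7.94, 8.71, 8.19 and 7.90 (Ubf wt/wt), higher in Ubf fl/fl at each time.

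In iMEFs 4 of 50 members were lower late and none higher (3.77% of all genes were called lower and 2.47% higher). These were Rrm2 (-0.85 ± 0.17, 0.554-fold, adjusted p = 0.011), Uhrf1 (-0.56 ± 0.14, adjusted p = 0.029), Tyms (-0.51 ± 0.13, adjusted p = 0.032) and Dut (-0.37 ± 0.08, adjusted p = 0.021). Rrm2 read 10.39, 10.91, 9.99, 9.39 and 9.24 in iMEF Ubf fl/fl and 10.57, 10.69, 10.56, 10.16 and 9.38 in iMEF Ubf wt/wt. In MEFs it read 10.99, 11.25, 9.86, 9.35 and 9.27 (Ubf fl/fl) and 10.87, 11.02, 9.75, 9.70 and 10.10 (Ubf wt/wt). The lowest iMEF value was that of the 96 h array in both genotypes, and the 48 h array of Ubf wt/wt overlapped the early ones. For 0 of 50 members did all late iMEF arrays lie below all early ones (1.62% of all genes). The 4 calls were 0 without the 24 h arrays, without the 96 h arrays or in the wild-type lines alone (median 0.07). With single arrays left out, the count was 0 without either 0 h array, 1 without the 24, 48 or 72 h array of Ubf fl/fl or the 48 h array of Ubf wt/wt, 2 without the 96 h array of Ubf fl/fl and 9 without the 24 h array of Ubf wt/wt.

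**Figure D3:**
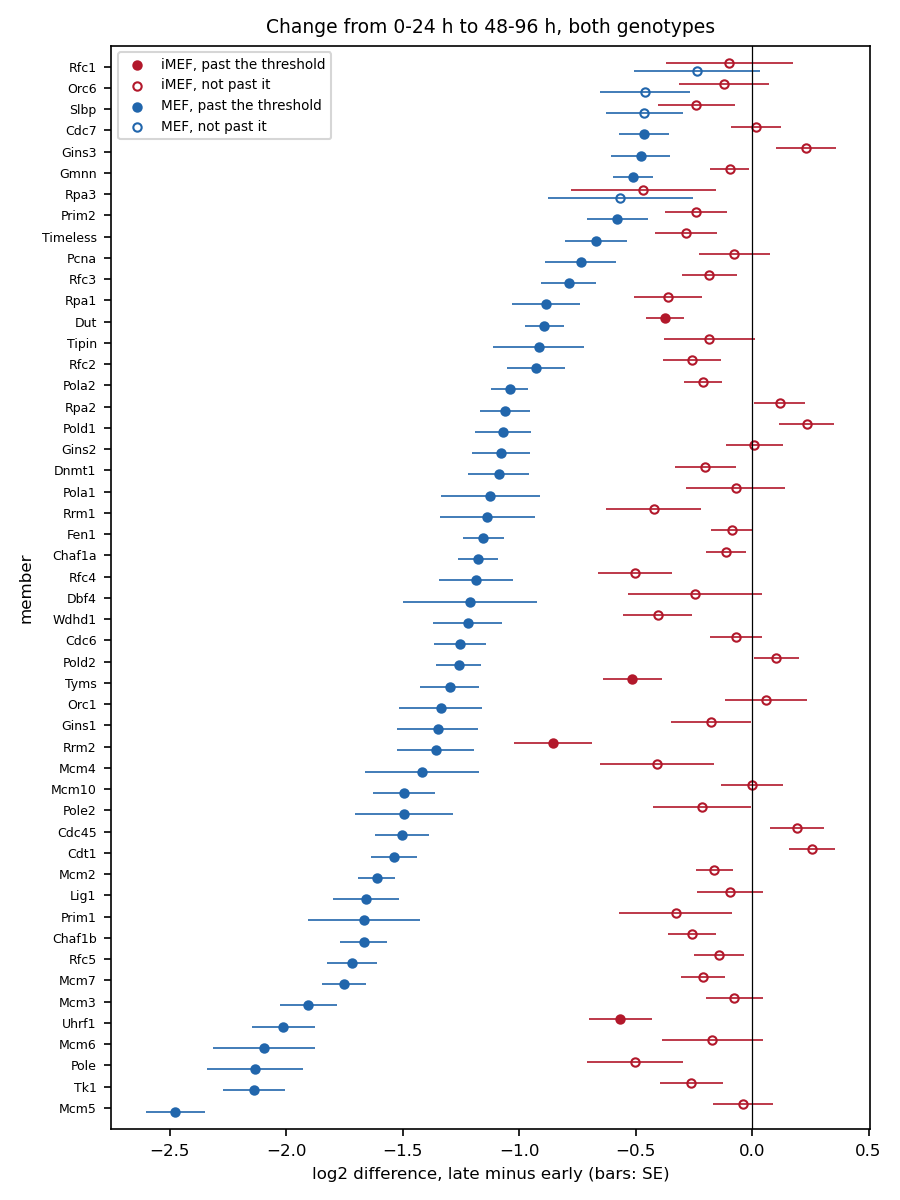
Log2 difference of late (48, 72 and 96 h) minus early (0 and 24 h) arrays for each member, with both genotypes in the fit; points are limma estimates, bars are SE, filled points passed the threshold, red is iMEF and blue is MEF. The MEF points run between -2.48 (Mcm5) and -0.24 (Rfc1), and the iMEF points between -0.85 (Rrm2) and 0.26 (Cdt1).

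The change over time differed between iMEFs and MEFs for 31 of 50 members by a test of the difference itself, all with the higher value in iMEFs (2.42% of all genes were called higher and 1.74% lower). The median difference over the 50 members was 1.06. Mcm5 had the largest (2.44 ± 0.18, adjusted p = 2.6e-05). By role, 5 of 6 MCM genes, 6 of 8 polymerase and primase genes, 5 of 7 firing genes and 4 of 5 chromatin genes passed, but only Rfc5 of the 6 clamp and loader genes and Rpa2 of the 3 RPA genes. In wild-type lines alone, where the times of each line stand in for replicates, 21 members passed. As the share of all genes called in that fit is not given here, this count is not read as a result about the members.

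Members followed a common course in MEFs. As a description over 10 arrays of 1 cell type, which share time points, the correlation of a member with the median of the other 49 had a median of 0.97 in MEFs, where 47 members were over 0.8, and 0.89 in iMEFs, where 32 were. In iMEFs Pold1 (-0.73), Pold2 (-0.46) and Cdt1 (-0.39) ran against the others. Over all 20 arrays Mcm7 and Chaf1b (both 0.98) were the most like the rest and Rfc1 (-0.40) the least.

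Other proliferation genes were set beside the members. Of 52 further replication and nucleotide genes, such as Asf1b and Ticrr, 24 were lower late in MEFs and 1 was higher, with a median of -0.42. Of 34 mitosis genes 33 were lower (median -2.18), with Plk1 at -2.80, and of 31 homologous recombination and Fanconi genes 19 were lower (median -0.52). In iMEFs 10 of the 52 replication genes were lower, with Dck, which salvages deoxycytidine, at -0.81. No mitosis gene was lower in iMEFs and Pttg1 was higher (0.56), while 1 recombination gene was lower and 2 were higher. Macrophage markers changed by a median of -0.13 late in MEFs (2 of 16 lower, 1 higher) and fibroblast markers by 0.09 (2 of 12 higher), and their part in the fall was not tested.

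The comparison of iMEFs with MEFs asks how immortalized and primary cells differed. It was fitted with limma on the means of the 4 lines, 2 a cell type, which leaves 2 residual degrees of freedom, and cell type cannot be told apart from anything else that set these lines apart. Over all genes the median was 0.10 at 0 and 24 h and 0.12 at 48 to 96 h, and 0.29 at both when arrays were scaled by the median of mRNA probe sets, so that values here are read against that shift. At 0 and 24 h 22 of 50 members were higher in iMEFs and none lower (8.45% of all genes were called higher and 15.9% lower), with a median of 0.51. Cdt1 had the largest difference (1.50 ± 0.17, 2.83-fold, adjusted p = 0.0036), followed by Pold1 (1.33), Timeless (1.32) and Mcm2 (1.21). Of the 50, 26 had every early iMEF array above every early MEF array (24.0% of all genes). Gmnn is among these 26, though it was over the filter level on iMEF arrays alone. Rfc1 had an estimate of -1.07 ± 0.40 (adjusted p = 0.097) and Pola1 and Dbf4 -0.83 each, none past the threshold. Without the 0 h array of iMEF Ubf fl/fl 6 members passed in place of 22.

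At 48 to 96 h 44 of 50 members were higher in iMEFs and 1 was lower, where 37.0% of all genes were called higher and 31.7% lower. The median over members was 1.66. Mcm5 differed most (3.59 ± 0.21, 12.1-fold, adjusted p = 0.00063), then Cdt1 (3.30 ± 0.09, 9.82-fold) and Tk1 (2.93 ± 0.18). For 41 of 50 members every late iMEF array lay above every late MEF array, as for 23.5% of all genes. Gmnn, over the filter level on iMEF arrays alone, is among these 41 and the 44. Rfc1 was lower in iMEFs (-0.93 ± 0.10, 0.525-fold, adjusted p = 0.002), and Orc6, Dbf4, Pola1, Rpa3 and Rrm2 did not pass. By role, the median was 2.53 for the MCM ring, 2.12 for Okazaki fragment maturation, 2.05 for chromatin genes, 1.69 for polymerases and primase, and 0.92 for nucleotide synthesis. Beside these, the 16 macrophage markers had medians of -3.00 early (15 lower past the threshold) and -2.61 late (14 past it), and the fibroblast markers of -0.86 early (5 of 12) and -1.44 late (11 of 12), and their part in the difference was not tested.

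**Figure D4:**
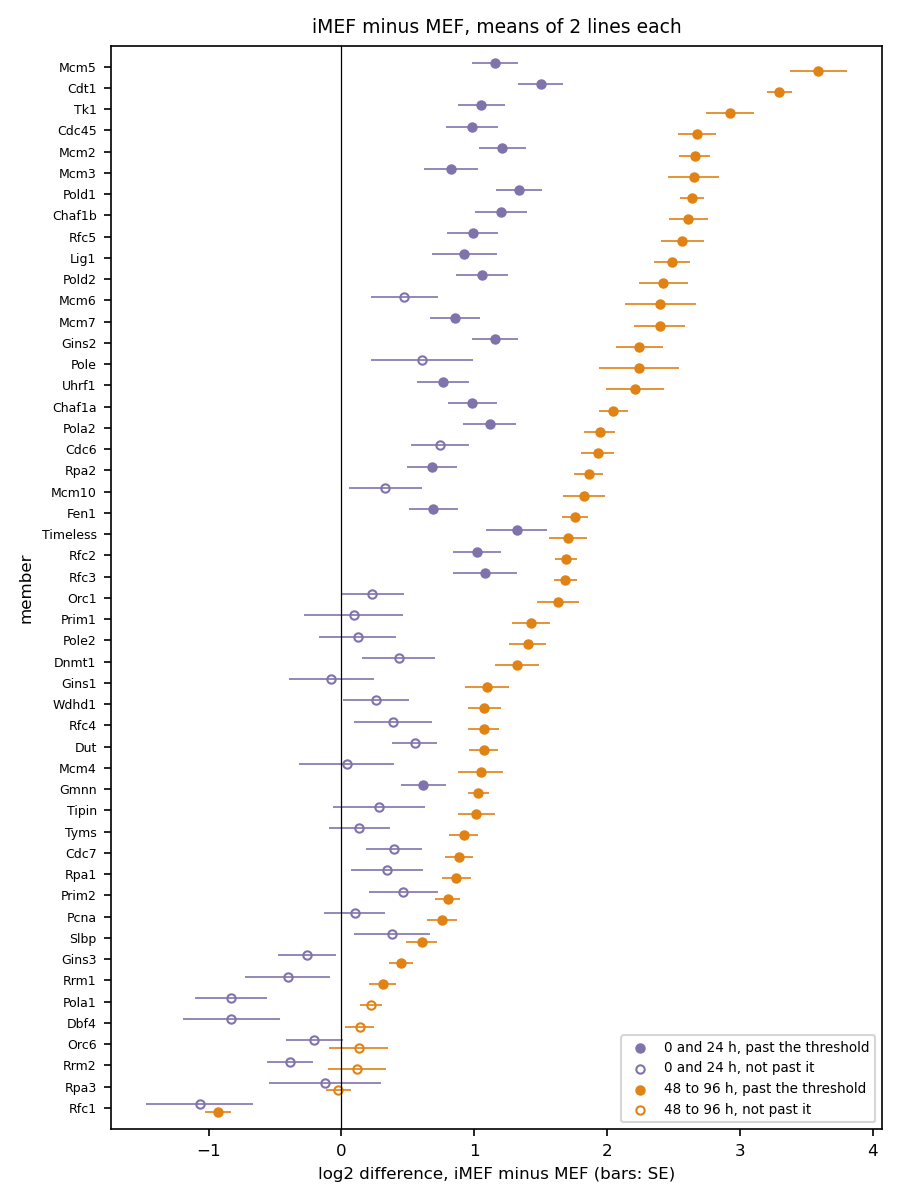
Log2 difference of iMEF minus MEF for each member at 0 and 24 h (purple) and 48 to 96 h (orange); points are limma estimates from line means, bars are SE and filled points passed the threshold. Orange points lie to the right of the purple ones, and Rfc1 lies below 0 at both.

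The late effect of Ubf loss asks whether Ubf fl/fl cells changed after 24 h in a way that Ubf wt/wt cells did not. It is the difference of Ubf fl/fl minus Ubf wt/wt at 48, 72 and 96 h, less the same at 0 and 24 h. The p-values are set by the scatter of this difference among times, so times of 1 pair of lines stand in for replicates. Ubf loss cannot be told apart from anything else that moved the lines of a pair apart after 24 h. In iMEFs none of the 50 members passed in limma (0.0393% of all genes were called lower and 0.183% higher), 16 had an unadjusted p under 0.05, and the median was -0.36 (0.777-fold) against -0.04 over all genes, or -0.28 without the 24 h array of iMEF Ubf fl/fl, which stood apart. In MEFs none passed (0.00% of all genes), 17 had an unadjusted p under 0.05, and the median was -0.39 (0.761-fold) against 0.06. The mean of both cell types gave a median of -0.39 with 30 members at an unadjusted p under 0.05 (3536 of all genes). The difference between the cell types gave a median of -0.03 with 0 such members (1136 of all genes). Neither gave a call (0.00% of all genes).

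Orc1 had the smallest p in iMEFs (-0.89 ± 0.21, adjusted p = 0.072) and in the mean of both cell types (-0.69 ± 0.15, adjusted p = 0.089). It read 7.56, 7.97, 7.97, 7.26 and 6.91 in iMEF Ubf fl/fl and 7.25, 7.18, 8.0, 7.78 and 7.39 in iMEF Ubf wt/wt, so that Ubf fl/fl was above Ubf wt/wt early and below it at 72 and 96 h. In MEFs Orc1 read 7.36, 7.42, 6.13, 5.55 and 5.73 (Ubf fl/fl) and 7.03, 7.22, 6.14, 5.92 and 6.05 (Ubf wt/wt), with the same crossing. Mcm5, given above, had the smallest p in MEFs (-0.63 ± 0.19, adjusted p = 0.70) and in the difference between cell types (0.55 ± 0.27, adjusted p = 0.69). The lowest estimates were those of Rpa3 (-1.26 ± 0.49), Rfc1 (-1.17 ± 0.41) and Dbf4 (-1.13 ± 0.44) in iMEFs and Mcm6 (-0.95 ± 0.32) in MEFs, none past the threshold. Those in iMEFs rested in part on the 24 h array of Ubf fl/fl: without it Rpa3 was at -0.70, Rfc1 at -0.57 and Dbf4 at -0.63, and Prim1 (-1.07 with it) was the lowest at -0.88. By its second probe set the late effect of Rpa3 in iMEFs was -0.47.

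Taken time by time relative to 0 h, the difference of Ubf fl/fl minus Ubf wt/wt in MEFs had a median over the members of 0.09 at 24 h, -0.14 at 48 h, -0.44 at 72 h and -0.54 at 96 h. In iMEFs it was 0.22, -0.32, -0.36 and -0.21. The medians over all genes were 0.05, 0.05, 0.06 and 0.20 in MEFs and 0.00, -0.02, -0.06 and -0.08 in iMEFs. In iMEFs the genotypes already differed at 0 h, where Ubf fl/fl was higher for 44 of 50 members (median 0.41), against 28 of 50 in MEFs (median 0.07). The iMEF median was 0.62 at 24 h and 0.11, 0.07 and 0.14 at 48, 72 and 96 h. At these late times 14, 20 and 18 of 50 members were lower in iMEF Ubf fl/fl than in iMEF Ubf wt/wt. In MEFs the late medians were -0.02, -0.27 and -0.42, with 29, 41 and 43 members lower. At 96 h MEF Ubf fl/fl stood at a median of -1.56 from its 0 h array and MEF Ubf wt/wt at -1.01. Between 72 and 96 h members of MEF Ubf fl/fl moved apart, with Cdc45 0.73 higher and Dbf4 1.17 lower, on the array that also stood apart over all genes. Macrophage markers had a late effect of 0.66 in MEFs (median, 15 of 16 positive) and 0.25 in iMEFs (13 of 16), mitosis genes of -1.08 and -0.66, with none called, and their part was not tested.

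**Figure D5:**
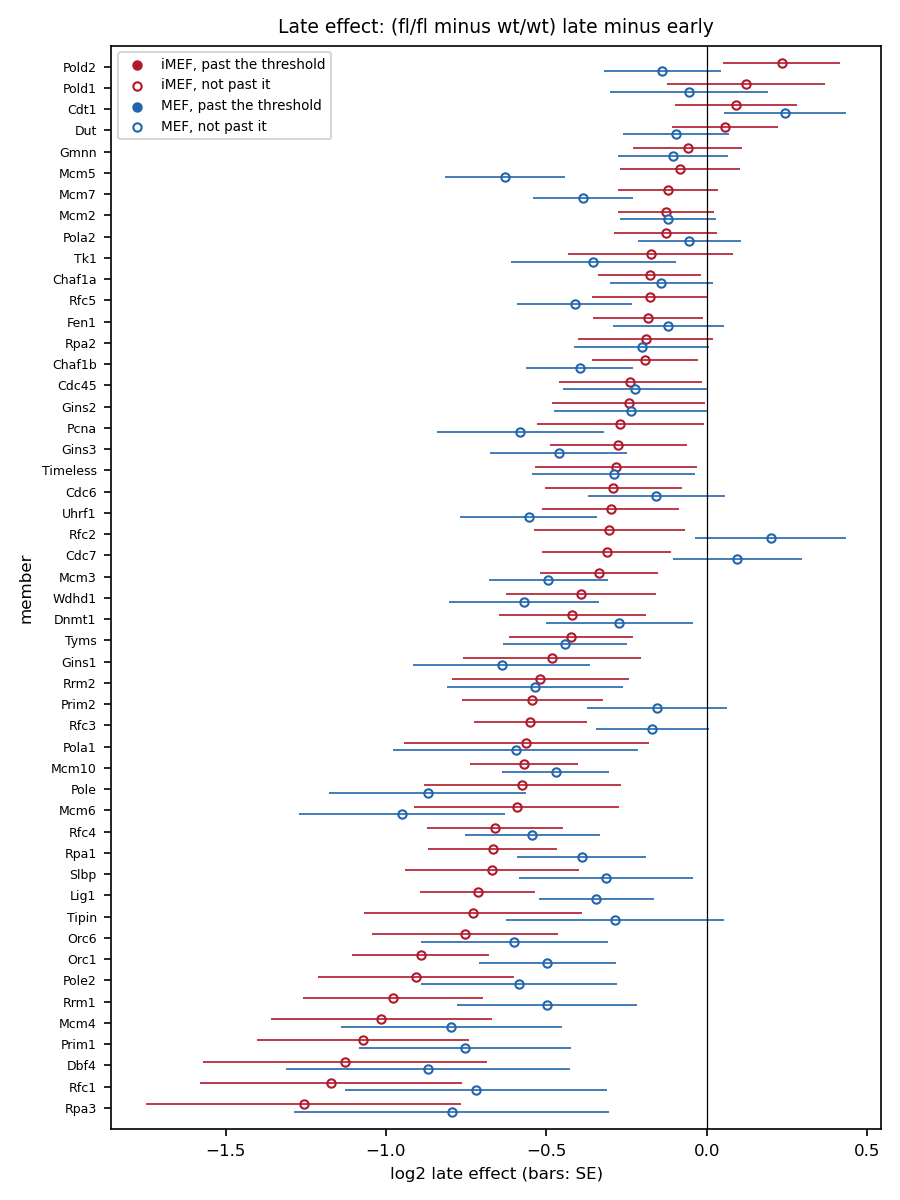
Log2 late effect of Ubf loss, (Ubf fl/fl minus Ubf wt/wt) at 48 to 96 h minus the same at 0 and 24 h, for each member; points are limma estimates with SE bars, red for iMEF and blue for MEF. All points are open, since none passed the threshold, and most lie below 0.

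The iMEF result depended on single arrays. Without the 96 h arrays of all lines 9 members were called lower in iMEFs, where 1663 of 15272 genes (10.9%) were called. Leaving out the 0 h array of either iMEF line gave 2 calls (2.75% of all genes called) and the 96 h array of either MEF line 6 (6.53%), since all lines share 1 estimate of the spread. For the mean of both cell types, leaving out the 48 h array of either MEF line gave 11 (4.73%). With the MEF Ubf fl/fl line taken alone, late against early, 39 members were lower (median -1.40), with the times of this line standing in for replicates. Both values hold the fall seen in Ubf wt/wt MEFs too, so they are not a late effect of Ubf loss. The share of all genes called in that fit is not given here.

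A second probe set was present for Pcna, Rpa3, Slbp and Tk1. The largest difference between both sets on an array was 1.17 for Rpa3, 0.80 for Tk1 and 0.42 for Slbp. Those of Pcna read within 0.04 of each other on every array and may detect the same or a copied sequence, and the level of Pcna cannot be given to 1 locus with certainty. The second set of Tk1 read 9.50, 9.81, 8.18, 7.67 and 7.57 in MEF Ubf fl/fl and 9.54, 9.77, 7.98, 6.87 and 7.17 by the main set, both with the step at 48 h. In iMEF Ubf wt/wt the second set read 10.86, 10.83, 10.36, 10.30 and 9.89, without the low 24 h value of the main set. The late effect of Tk1 in iMEFs was 0.24 by the second set and -0.18 by the main set.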

How the data were processed

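The authors deposited log2 values of 35556 probe sets on 20 arrays, which they made by RMA-sketch normalization with Affymetrix Power Tools 1.14.4. Intensities before normalization were not used, so detection over background was not tested. The array named in the paper's methods is Mouse Gene 2.0 ST, and the probe annotation used here is of Mouse Gene 1.0 ST. Of the probe sets, 21789 carry 1 symbol, 1621 several and 12146 are not listed; those with several were left out.

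The deposited log2 values were tested without further normalization in R 4.3.3 with limma 3.58.1 (Benjamini-Hochberg adjustment over 15272 genes, threshold 0.05). Residual and prior degrees of freedom were 6 and 4.78 for the late effect, 8 and 4.58 for the change over time, and 2 with 4.72 (0 and 24 h) or 2.54 (48 to 96 h) for cell type. Figures were made with matplotlib 3.10.9 under Python 3.11.15. The members and lists were chosen with earlier results of these data known. All members could be named. Values on every array were given for Ubtf, for the member with the highest mean in each role group, and in each comparison for the member with the largest called change in each direction or, with no call, the smallest p; other genes named were the largest changes of their list, and the arrays of Tk1 by its second probe set were chosen after their values were seen.

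The tests were checked on simulated data with the means and spreads of the 15272 genes. Of 100 genes changed by 1 and 100 changed by 2, limma recovered 38 and 94 for the late effect in iMEFs (9 false calls), 28 and 84 in MEFs (7), 66 and 98 in their mean (4), and 11 and 64 in their difference (5). For the change over time it recovered 97 and 100 in iMEFs (10), 85 and 100 in MEFs (13), and 73 and 96 in the difference (11). For 24 h against 0 h it recovered 75 and 96 in iMEFs (6) and 68 and 97 in MEFs (9). For cell type it recovered 8 and 74 early (0) and 31 and 87 late (6).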

Additional observations from a re-analysis of the deposited data

Results flagged for a closer look

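The change over time differed between iMEFs and MEFs for 31 members by the test of the difference itself. Values are log2 changes of late against early arrays in iMEFs minus the same in MEFs, all positive, and in each case the MEF change was the lower. Among the MCM ring genes they were 2.44 for Mcm5, 1.93 for Mcm6, 1.83 for Mcm3, 1.54 for Mcm7 and 1.45 for Mcm2. The licensing genes Cdt1 (1.79), Orc1 (1.40) and Cdc6 (1.19) and the firing genes Cdc45 (1.70), Mcm10 (1.49), Gins1 (1.17), Gins2 (1.09) and Gins3 (0.71) differed too. For polymerases and primase the values were 1.63 (Pole), 1.36 (Pold2), 1.34 (Prim1), 1.30 (Pold1), 1.28 (Pole2) and 0.83 (Pola2). Rfc5 of the clamp loader had 1.58, Rpa2 of the single-strand binding complex 1.18, Lig1 1.56 and Fen1 1.07. Of the nucleotide genes Tk1 had 1.88, Tyms 0.78 and Dut 0.52. The chromatin genes Uhrf1 (1.45), Chaf1b (1.41), Chaf1a (1.06) and Dnmt1 (0.89) and the fork gene Wdhd1 (0.82) complete the list.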

How the results depend on the processing

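Alternatives were scaling by the mRNA median or by quantiles, no filter or one at the 60th percentile, a gene's probe sets averaged, trend and robust variance settings, other sets of times, lines or units of the fit, and each of the 20 arrays left out in turn. In MEFs the count of members lower late stayed between 41 and 48 with single arrays left out, and the difference between cell types over time between 23 and 37. Both kept within 1.5 times their counts under every alternative run, the lowest being 37 and 21 in the wild-type lines alone. In that last fit the times of each line stand in for replicates, so its counts rest on another error. Under the alternatives the share of all genes called is given only where stated above. The counts therefore show how the number of calls moved and are not read as results about the members. The late effect of Ubf loss in iMEFs gave 0 calls under all alternatives but 2: 9 calls without the 96 h arrays, and between 0 and 6 with single arrays left out. In MEFs it gave 0 under all alternatives that subtract Ubf wt/wt. The floxed line alone gave 39, but that fit has no such subtraction and measures the change over time. The mean of both cell types gave 1 without the 48 h arrays and between 0 and 11 with single arrays left out. The 4 members lower late in iMEFs were 0 without the 24 h arrays, 0 without the 96 h arrays and 0 in wild-type lines alone, and between 0 and 9 with single arrays left out. The iMEF minus MEF count at 0 and 24 h was 43 with line means over all times, which include the late arrays, and between 6 and 28 with single arrays left out; at 48 to 96 h it lay between 44 and 45. The change over time in the floxed MEF line alone was opposite in sign to the late effect for Cdt1 (-1.41) and Rfc2 (-0.83), since it holds the fall that Ubf wt/wt MEFs share. Gins1, at -0.08 between iMEFs and MEFs at 0 and 24 h, was higher in iMEFs by 0.63 with line means over all 5 times, which include the late arrays. Of all values of single members under the alternatives, 15832 kept their side of the threshold, 224 lost the call and 169 gained it. A further 3 turned in sign with a call in the main fit or the alternative. Changes of sign with no call in either fit are counted among the 15832. The late effect rests on differences of Ubf fl/fl minus Ubf wt/wt paired by time, so leaving out either array of a pair gave the same values; the labels number no replicates, and no fit with a replicate block was made.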
